A study of Mus musculus with 4 samples.

Results

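Rnf183, Pkd1l2, Qrfprl and Hamp2 are 4 genes of somatic, tissue-restricted expression whose reads were found in lung mesenchymal cells labelled as a Dnmt1 conditional knockout (CKO) and not in their wild-type (WT) counterparts. They are 4 of the 31247 genes in the deposited count table, picked by name because they had 0 or nearly 0 WT reads, many CKO reads and no mainly germ cell role. The read counts of the CKO and WT libraries therefore chose them, and their difference between genotypes is given as a description without a test. Cells carrying a PDGFRb-GFP reporter, called myofibroblasts in the labels, were sorted from lungs on postnatal day 7. The 2 CKO libraries carry PDGFRb-GFP, Tbx4-rtTA, Tet-O-Cre and Dnmt1-D/D. In this design regulatory sequence of Tbx4 drives the tetracycline-dependent activator and thereby Cre in lung mesenchyme. The 2 WT libraries are labelled Wild type PDGFRb-GFP, and whether they carried the activator or Cre is not given in the sources used here, nor is the inducing treatment. Libraries are named CKO A, CKO B, WT A and WT B by column order, since the column names do not give the replicate of the labels. The names of CKO A, CKO B and WT B open with a shared number and that of WT A with another. What this number stands for (a litter, a cage or a run) is not given in the sources used here. Values without WT A are those within the shared number.

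DNMT1 copies CpG methylation onto the newly made DNA strand at replication, and methylated promoters are held silent in many somatic tissues. The 4 genes have unrelated products. Rnf183 encodes a membrane-bound RING ubiquitin ligase best known from kidney collecting duct, where hypertonicity induces it through the transcription factor NFAT5. Pkd1l2 encodes a large membrane protein of the polycystin family. Qrfprl encodes a mouse G protein-coupled receptor related to the receptor of the neuropeptide QRFP. Hamp2 is the mouse paralog of Hamp, the gene of hepcidin, the liver hormone that limits iron export by ferroportin. Both hepcidin genes are known from liver, and Hamp2 also from pancreas.

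The promoter sequences are shown because maintenance methylation acts on CpG dinucleotides, which are in capitals. Each is the 250 bases before a RefSeq transcription start (GRCm38.p6), written on the gene's own strand. RefSeq gives 2 starts for Rnf183, both on the minus strand, at chr4:62435251-62435500 for start 1 and chr4:62434641-62434890 for start 2.
Rnf183 start 1: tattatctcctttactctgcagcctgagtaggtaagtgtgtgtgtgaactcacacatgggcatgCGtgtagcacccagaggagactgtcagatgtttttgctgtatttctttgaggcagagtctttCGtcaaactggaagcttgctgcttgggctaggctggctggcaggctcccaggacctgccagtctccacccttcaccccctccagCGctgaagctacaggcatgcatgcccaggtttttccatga
Rnf183 start 2: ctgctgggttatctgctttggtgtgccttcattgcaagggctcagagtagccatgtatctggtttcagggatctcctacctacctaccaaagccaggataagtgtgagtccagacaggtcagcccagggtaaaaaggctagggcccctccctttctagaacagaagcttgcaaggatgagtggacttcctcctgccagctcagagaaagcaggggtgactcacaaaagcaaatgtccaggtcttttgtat
The Pkd1l2 window is on the minus strand at chr8:117082450-117082699.
Pkd1l2: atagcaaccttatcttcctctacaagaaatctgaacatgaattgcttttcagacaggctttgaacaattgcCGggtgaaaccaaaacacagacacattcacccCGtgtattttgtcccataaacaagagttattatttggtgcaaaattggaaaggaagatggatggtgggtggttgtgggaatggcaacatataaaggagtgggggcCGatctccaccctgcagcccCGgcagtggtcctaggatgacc
The Qrfprl window is on the plus strand at chr6:65381044-65381293.
Qrfprl: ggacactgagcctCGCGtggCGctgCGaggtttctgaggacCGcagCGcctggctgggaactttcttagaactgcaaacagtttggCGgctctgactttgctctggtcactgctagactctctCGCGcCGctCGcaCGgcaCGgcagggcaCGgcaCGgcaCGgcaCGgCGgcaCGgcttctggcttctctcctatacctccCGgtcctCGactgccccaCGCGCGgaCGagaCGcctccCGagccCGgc
Hamp2, at chr7:30924182-30924431, is set above its paralog Hamp, at chr7:30944030-30944279, both on the minus strand.
Hamp2: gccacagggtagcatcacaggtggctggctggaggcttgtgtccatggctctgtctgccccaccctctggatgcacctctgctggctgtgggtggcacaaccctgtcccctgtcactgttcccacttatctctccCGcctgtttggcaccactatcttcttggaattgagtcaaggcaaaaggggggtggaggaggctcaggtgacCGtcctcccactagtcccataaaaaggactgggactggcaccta
Hamp: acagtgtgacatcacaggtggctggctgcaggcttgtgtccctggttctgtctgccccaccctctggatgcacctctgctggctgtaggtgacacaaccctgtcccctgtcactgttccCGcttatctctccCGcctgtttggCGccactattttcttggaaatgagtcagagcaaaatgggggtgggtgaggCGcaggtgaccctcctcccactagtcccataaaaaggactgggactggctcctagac

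The promoters were not alike in CpG content, a property that the choice of genes did not use. The windows follow RefSeq starts, while gene positions and distances in this report follow GENCODE, and the 2 do not always match. By GENCODE positions the windows of Hamp2 and of Rnf183 start 2 lie inside the gene, and that of Qrfprl lies partly inside. The CpG counts and motifs below hold for the RefSeq starts only. The Qrfprl window held 28 CpG, more than 92.4% of the 32851 promoter windows of all genes, with an observed to expected CpG ratio of 1.01. The other members were CpG-poor, with 4 in the Pkd1l2 window, 3 and 0 at the starts of Rnf183 and 2 in the Hamp2 window, against a median of 6 over all promoters (quartiles 2 and 16). As a class, the other genes with at most 3 WT reads and at least 100 CKO reads had a median of 6 as well (quartiles 2 and 14, 60 windows of 53 genes). One TATAAA motif, searched on both strands, lay 59 bases before the Pkd1l2 start and none in the other member windows, and 12.4% of all promoters hold one. The E-box CACGTG (in 6.02% of all promoters, either strand) was absent from the member windows. So were the CRE motif TGACGTCA (1.55%), the E2F motif TTCCCGC (3.82%) and the NRF1 motif (0.782%). The absence of these letters from a window says nothing of the factors that bind them.

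**Figure D1:**
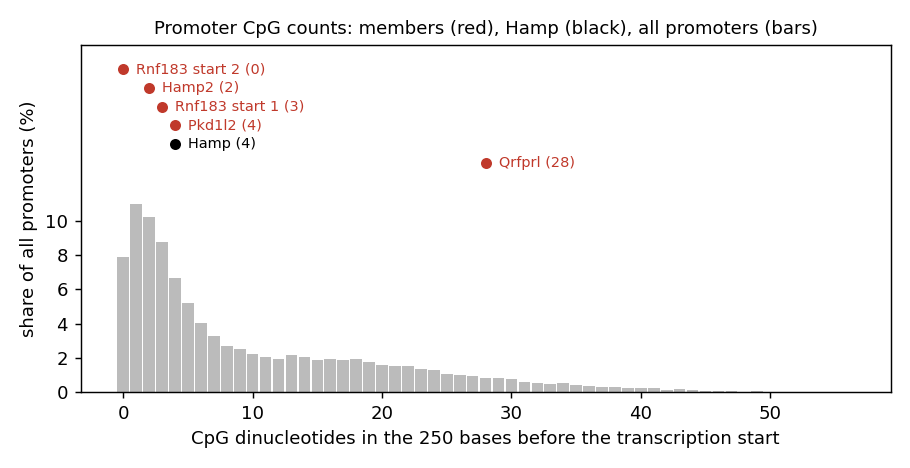
CpG dinucleotides in the 250 bases before the RefSeq transcription start (x axis) with the share of all 32851 promoter windows at each count in percent (bars, y axis). Dots above the bars place the member promoters (red) and that of Hamp (black) along the x axis only, with Qrfprl at 28 CpG and the others at 0 to 4.

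Hamp2 and Hamp lie in a duplicated stretch of chromosome 7, and their promoters are close copies of each other. Aligned end to end, the windows were identical at 227 of 253 columns (89.7%), with 20 mismatches and 6 gap columns. They shared 1 CpG position, while 1 was found in Hamp2 alone and 3 in Hamp alone. The TTCCCGC motif was present in the Hamp window and not in that of Hamp2.

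Sequencing depth was 26420648 counted reads in CKO A, 23581186 in CKO B, 23071657 in WT A and 25709717 in WT B, so that 1 read was worth 0.0378 to 0.0433 CPM (counts scaled to a common library total). Dnmt1, the targeted gene, stood at 77.7 CPM in CKO A and 29.0 in CKO B, against 142 in WT A and 119 in WT B. Its log2 change of -1.27 ± 0.57 (SE) did not pass in edgeR's quasi-likelihood test (adjusted p = 0.31, n = 2 per genotype), and leaving out either CKO library made it pass (adjusted p = 3.8e-05 without CKO A and 0.040 without CKO B, with a range of 3.8e-05 to 0.77 over 8 alternatives). The reads of 4 Y-linked genes summed to 4444 in CKO A and 0 in each of the others. Male cells were thus read in CKO A alone, so that sex differed within CKO and was not balanced between genotypes. The CKO libraries had reads on 22237 and 22532 genes, against 21883 in WT A and 27643 in WT B, which thus differed from the rest. Among 12 mesenchymal markers, all read in every library, Pdgfrb, the gene of the sorted reporter, stood at 371 and 312 CPM in CKO and 500.1 and 492 CPM in WT (edgeR adjusted p = 0.055, range 0.0073 to 0.28 over 8 alternatives). Pdgfra (404 and 318 CPM in CKO, 589 and 527 CPM in WT) and Tbx4, the gene that names the activator (443 and 322 CPM in CKO, 624 and 544 CPM in WT), also lay lower without overlap and did not pass. Of the 12, edgeR called 1 higher (Cnn1, lost without WT A or WT B, adjusted p range 0.00047 to 0.17) and 0 lower, with 3 higher and 3 lower at an unadjusted p under 0.05, and DESeq2 called 4 higher and 3 lower. Of all tested genes edgeR called 4.85% higher and 2.75% lower. The matrix gene Eln alone made up 36024 of the 66089 CPM summed over the mesenchymal markers in CKO A.

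Rnf183 (ENSMUSG00000063851, chromosome 4, 62427540 to 62435252, minus strand) had 188 reads in CKO A and 303 in CKO B, against 0 in WT A and 0 in WT B. The corresponding levels were 7.12 and 12.8 CPM in the CKO libraries. Both CKO libraries were thus above both WT libraries, and CKO B was the higher of the pair. Over the CKO group it averaged 9.98 ± 4.05 CPM (SD, n = 2), at least 160-fold above a floor of 3 reads over both WT libraries, which is 0.0615 CPM. A floor of this kind takes in counting error alone, since PCR copies of a molecule are counted as separate reads.

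Pkd1l2 (ENSMUSG00000034416, chromosome 8, 116995679 to 117082449, minus strand) had 166 reads in CKO A and 270 in CKO B, against 0 in each WT library. Its CKO level was 6.28 and 11.4 CPM, a mean of 8.87 ± 3.65 (SD, n = 2), at least 142-fold above the same floor. Qrfprl (ENSMUSG00000029917, chromosome 6, 65381105 to 65458150, plus strand) had 103 and 247 reads in CKO A and CKO B, and 0 in WT A and WT B. It showed the widest gap between the CKO libraries of the 4 genes, at 3.90 and 10.5 CPM, a mean of 7.19 ± 4.65. That mean was at least 114-fold above the floor. Hamp2 (ENSMUSG00000056978, chromosome 7, 30922372 to 30924681, minus strand) had 92 reads in CKO A and 157 in CKO B, against 0 reads in WT A and in WT B. It was the lowest of the 4 in CPM, at 3.48 and 6.66, a mean of 5.07 ± 2.25 and at least 81.0-fold above the floor.

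**Figure D2:**
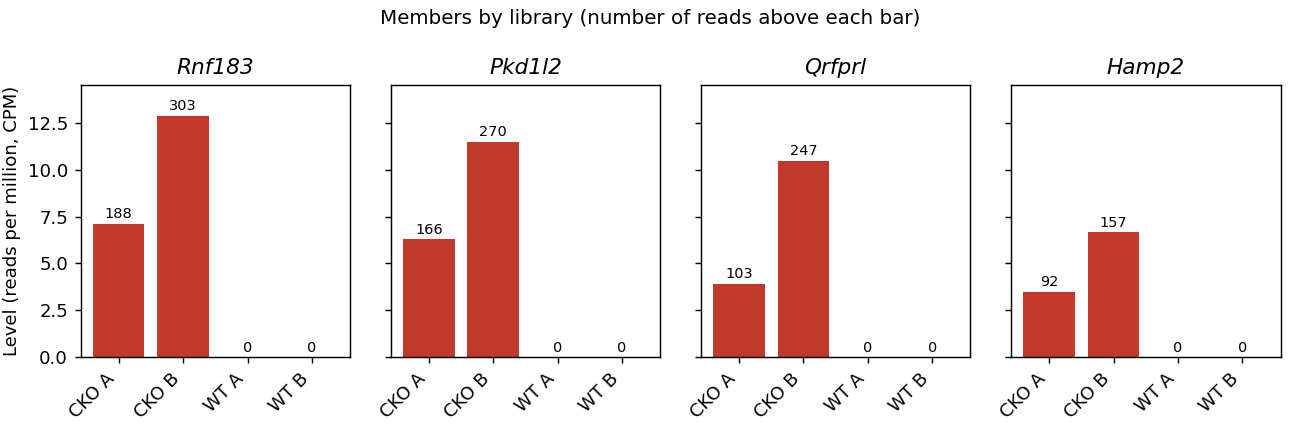
Level of each of the 4 genes in CPM (y axis, from 0) in CKO A, CKO B, WT A and WT B, 1 bar per library and no error bar, with the number of reads above each bar. Reads ran from 92 to 303 in the CKO libraries and were 0 in every WT library.

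In bulk RNA, few cells with much of a transcript and many cells with little cannot be told apart. CKO and WT levels were separate for each of the 4 genes, which the choice of genes fixed, and 56.6% of the 15210 genes tested were without overlap between genotypes. All 4 passed the filter on low counts, which they could do through their CKO reads alone. The authors' deposited table lists log2 fold changes of 10.98 for Rnf183, 10.81 for Pkd1l2, 10.51 for Qrfprl and 10.01 for Hamp2. With 0 WT reads these fitted values depend on the prior count and are not bounds. In the fit made here, 7.61% of tested genes were called. Hamp2 had the fewest CKO reads of the 4 with 249 in both libraries, and among named genes with 0 WT reads the germ cell gene Fkbp6, which is not a member, had 189.

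Per kilobase of exon the order of the genes was different, and the levels were modest. Hamp2, with the shortest exons (583 bases), stood highest at 5.97 and 11.4 CPM per kilobase (RPKM) in CKO A and CKO B, a mean of 8.70 ± 3.85 (SD, n = 2). Rnf183 followed at 4.67 and 8.43 RPKM, a mean of 6.55 ± 2.66. These levels were above those of 68.2% of listed coding genes in CKO A and 80.2% in CKO B for Hamp2, and of 63.7% and 74.9% for Rnf183. Qrfprl lay at 1.19 and 3.20 RPKM, with a mean of 2.20 ± 1.42. Pkd1l2, with 8301 exon bases, was lowest at 0.757 and 1.38 RPKM (1.07 ± 0.44), above 39.6% and 44.9% of coding genes. This order, from Hamp2 over Rnf183 and Qrfprl to Pkd1l2, was the same in CKO A and in CKO B. The means of Hamp2 and Rnf183, and those of Qrfprl and Pkd1l2, differed by less than the larger SD of each pair. That SD holds the gap between the CKO libraries, which the genes share. Both CKO values of Rnf183 were above both of Qrfprl. The lengths are unions of GENCODE M21 exons, since the deposited lengths exceed these (17694 against 8301 bases for Pkd1l2).

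All 4 genes were higher in CKO B, the library with less Dnmt1 RNA, than in CKO A, a comparison of 1 library with 1 library that has no replicate check. The ratio of CKO B to CKO A was 1.81 for Rnf183 (95% exact binomial interval 1.5 to 2.18), 1.82 for Pkd1l2 (1.5 to 2.22), 1.91 for Hamp2 (1.47 to 2.5) and 2.69 for Qrfprl (2.13 to 3.42), with intervals that cover counting error only. Genes with at most 3 WT reads and at least 100 CKO reads, chromosome Y left out, numbered 96 of 31228 (0.307%), and 94 of these 96 were higher in CKO B. Their median ratio was 2.05 (quartiles 1.80 and 2.52), so that Rnf183 lay close to the lower quartile, with 71 of the genes above it, and Qrfprl high, with 19 above it. Over all 15210 tested genes the median ratio was 0.989 (quartiles 0.861 and 1.17). Marker sums of other lung cells were higher in CKO A than in CKO B, at 146 and 77.9 CPM for epithelial, 126 and 78.2 CPM for endothelial and 71.6 and 45.2 CPM for leukocyte markers. Dnmt1 level, Y-linked reads and these marker sums all differ between CKO A and CKO B and cannot be told apart here.

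**Figure D3:**
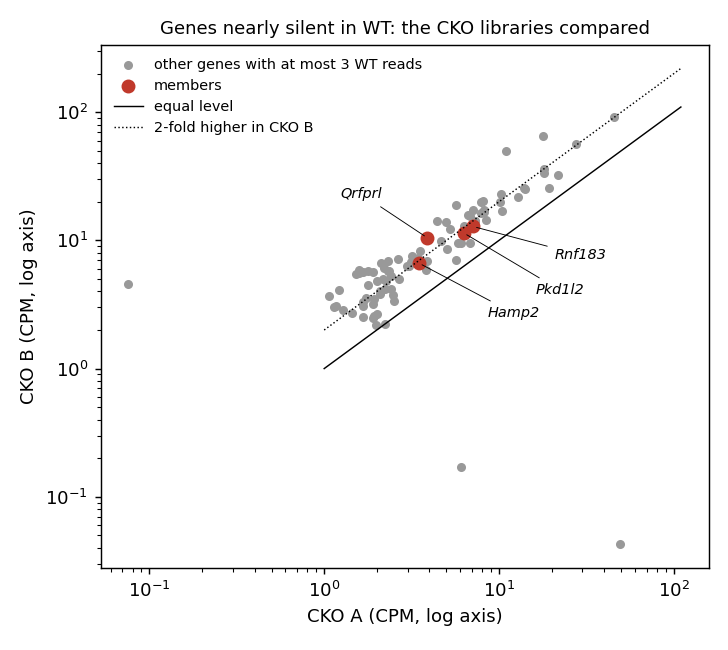
Level in CKO A (x axis, CPM) against CKO B (y axis, CPM), both log axes, of genes with at most 3 WT reads and at least 100 CKO reads, 1 point per gene, with the gene at 0 reads in CKO A not drawn. The 4 genes in red lie among the others, above the line of equal level and on either side of the dotted line of a 2-fold difference, with ratios of 1.81 to 2.69.

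The genes whose reads were most alike over the 4 libraries were taken by Euclidean distance in log2(CPM + 0.5) among named genes. Tex101, a germ cell surface glycoprotein gene, had nearly the counts of Qrfprl, with 103 and 246 reads in CKO A and CKO B and 0 in both WT libraries (distance 0.0056). Pkd1l2 and Rnf183 were each other's nearest gene (0.231). Morc1, a germ cell gene of transposon silencing, was nearest to Hamp2 (0.169), with 83 and 159 CKO reads against 0 and 1 in WT. Next came Wdr49 and Igsf23 for Rnf183, Xlr3c and Asz1 for Pkd1l2, Slc25a31 and Cntn3 for Qrfprl, and Xlr4a and Fkbp6 for Hamp2, at distances of 0.265 to 0.516. With 4 libraries this likeness is a description of counts alone.

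Shared sequence with other genes was scarce except in Hamp2. Of the 50-base words in Rnf183 transcripts 0 of 1470 occurred in transcripts of another GENCODE gene, and for Qrfprl 9 of 3308 did, all in Qrfpr, the paralog, which has no row in the table. For Pkd1l2 164 of 8344 words (1.97%) were shared, all with the antisense gene Gm15395. Hamp2 shared most, 104 of 534 words (19.5%), 60 of them with Hamp and 44 with the antisense gene Gm44662. Neither antisense gene had a row in the table, and since the use of strand in counting is not given in the sources used here, antisense reads cannot be told apart. Hamp itself had 2 and 1 reads in the CKO libraries and 0 in each WT library, 3 reads in all.

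The genes beside the members on their chromosomes were examined next, since the choice of members did not use them. Of the 5 nearest genes on each side with a row in the table, 40 in all, 25 could be tested, 2 were higher and 1 was lower in CKO. Of the 40, 11 had at most 3 WT reads, and such genes could be tested only through their CKO reads. Of all tested genes 4.85% were higher and 2.75% lower. The median log2 change of these neighbours was -0.05, and over all tested genes it was -0.01. Genes that were read in all libraries and did not pass included Prpf4, a splicing factor gene 550 bases from the 3′ end of Rnf183 (25.1 and 29.3 CPM in CKO, 25 CPM in each WT library, edgeR adjusted p = 0.53) and Gcsh, of the glycine cleavage system, 2142 bases from the 3′ end of Pkd1l2 (23 and 18.7 CPM in CKO, 17.2 and 21.2 CPM in WT, edgeR adjusted p = 0.60).

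Usf2-ps1, a pseudogene of the transcription factor gene Usf2 in the same duplicated stretch, was higher in CKO and is the gene nearest to the 5′ side of Hamp2. It lies 1987 bases upstream of the GENCODE bounds of Hamp2, on the same strand (chromosome 7, 30926668 to 30927147). It had 30 reads in CKO A and 59 in CKO B, against 0 in WT A and 1 in WT B, 86.8 times the WT level, with a 95% counting interval of 15.2 to 3468. It passed in edgeR (adjusted p = 0.0094) and was higher in 2 of 2 CKO libraries. With 0 and 1 WT reads it passed the filter on low counts through its CKO reads alone. A neighbour silent in WT could thus be tested only if it was high in CKO. Its ratio of CKO B to CKO A was 2.20, and that of Hamp2 was 1.91. Both lie between the quartiles of genes with at most 3 WT reads and at least 100 CKO reads (1.80 and 2.52), so the likeness is not particular to this stretch. Usf2-ps1 shares 207 of its 262 words of 50 bases with Usf2, 24 of them also with Gm44662, so its counts are uncertain. Gm44662 shares 44 words with Hamp2 as well. How reads were placed among these genes was not tested. Usf2 itself did not pass, at 40.3 and 37.1 CPM in CKO and 39.7 and 39.8 CPM in WT (edgeR adjusted p = 0.97). The 5 genes on the other side of Hamp2, from Mag to Krtdap, had at most 11 reads in any library and were not tested.

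Wdr31, a WD repeat gene, was higher in CKO and is the nearest gene on the 5′ side of Rnf183, 13401 bases away and on the same strand. It stood at 3.03 and 4.33 CPM in CKO A and CKO B and at 1.17 CPM in each WT library, a log2 change of 1.68 ± 0.34 (SE, edgeR adjusted p = 0.027). Unlike Rnf183, it was read in WT. The call was lost without WT A (adjusted p = 0.083), without WT B (0.13) and without CKO B (0.073), with a range of 0.00024 to 0.13 over 8 alternatives. Bco1, the gene of a carotene-cleaving enzyme and the nearest gene to the Pkd1l2 start, did not pass, at 1.78 and 0.594 CPM in CKO and 1.73 and 1.83 CPM in WT. Around Qrfprl 4 of 10 neighbours could be tested and 0 passed in edgeR, with Smarcad1, a chromatin remodeller gene, at 37.8 and 34.3 CPM in CKO and 44.6 and 46.7 CPM in WT (adjusted p = 0.13). At an unadjusted p under 0.05 there were 0 higher and 2 lower among the 4, and DESeq2 called 0.

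**Figure D4:**
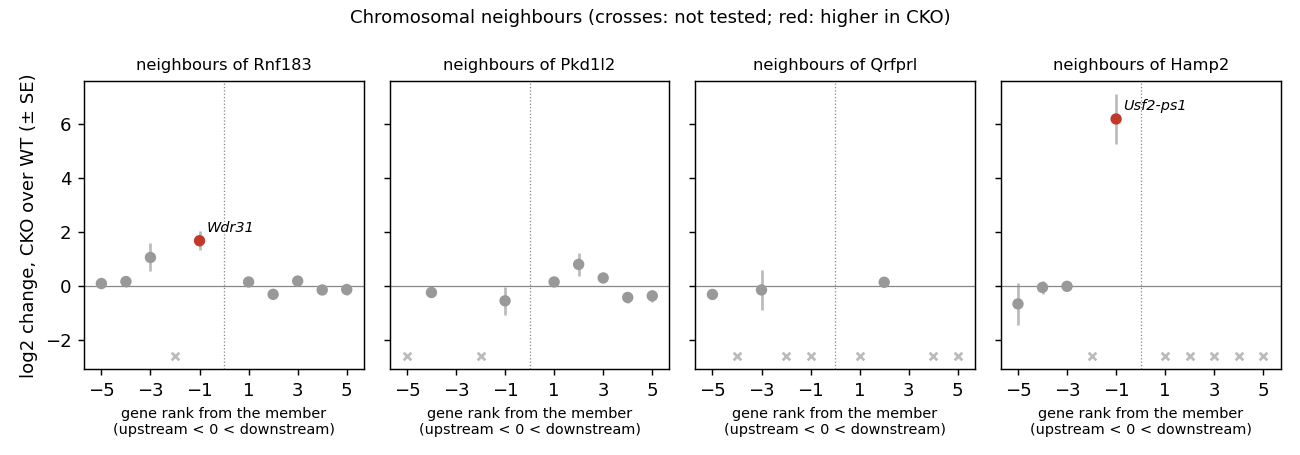
Log2 change of CKO over WT (y axis, error bars ± SE) of the 5 nearest genes upstream and downstream of each member (x axis, rank from the member), with crosses for genes that could not be tested. Usf2-ps1 beside Hamp2 and Wdr31 beside Rnf183 were higher (red), and the grey genes did not pass. Points of 2 tested genes are not drawn.

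The relatives of each member were set beside it. Of 7 membrane RING ligases related to Rnf183, 5 were tested, 0 were higher and 1 was lower, beside 4.85% and 2.75% of all tested genes. Rnf152, a lysosomal ligase of that family, stood at 34.0 and 25 CPM in CKO against 86.0 and 81.8 CPM in WT (log2 change -1.48 ± 0.16, SE, edgeR adjusted p = 0.0037). Rnf223 had 4 and 9 reads in CKO and 24 and 25 in WT and did not pass (edgeR adjusted p = 0.095), and Rnf186 had 0 reads in each CKO library, 0 in WT A and 1 in WT B. The median log2 change of the tested relatives was -0.42.

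Genes of the hypertonic response, the known route of Rnf183 induction in kidney, did not pass in edgeR with the filter on low counts. Of 7 genes 6 were tested, with 0 higher and 0 lower. At an unadjusted p under 0.05 there were 2 higher (Slc6a6 and Hspa4l) and 1 lower (Nfat5), while DESeq2 called 1 higher (Slc6a6) and 0 lower. With no filter on low counts edgeR called 2 higher and 1 lower, so the absence of calls depended on the setting. Nfat5 stood at 153 and 228 CPM in CKO and 278 and 262 CPM in WT (edgeR adjusted p = 0.19). Slc6a6, the taurine transporter gene, was at 172 and 221 CPM in CKO and 138 and 148 CPM in WT (edgeR adjusted p = 0.076). The median log2 change of the list was 0.12.

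The polycystins other than Pkd1l2 did not pass either. Of 7 genes 5 were tested, 0 were called in edgeR and 0 in DESeq2, and at an unadjusted p under 0.05 there were 0 higher and 2 lower (Pkd2 and Pkd1l3). Pkd1, the receptor gene mutated in polycystic kidney disease, stood at 445 and 582 CPM in CKO and 571 and 533 CPM in WT. Pkd2, the gene of its channel partner, was at 289 and 302 CPM in CKO and 344 and 381 CPM in WT (edgeR adjusted p = 0.20). Pkd1l3, the gene of a partner of the channel protein PKD2L1, was at 1.36 and 1.57 CPM in CKO and 2.77 and 3.31 CPM in WT (edgeR adjusted p = 0.095). Pkd1l1 and Pkd2l1 had at most 2 reads in any library.

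For Qrfprl the ligand and the paralogous receptor were near or without reads. Qrfp, the ligand gene, had 4 and 3 reads in CKO and 3 and 15 in WT and could not be tested, and Qrfpr had no row in the table. Of 16 genes of this and related neuropeptide systems 9 had reads, 3 were tested, 0 were higher and 1 was lower, beside 4.85% and 2.75% of all tested genes. That gene was Npff, of a related RFamide peptide, at 0.833 and 0.848 CPM in CKO against 2.43 and 3.5 CPM in WT (log2 change -1.78 ± 0.37, edgeR adjusted p = 0.027). Without WT B its call was lost (adjusted p = 0.20, with a range of 0.0013 to 0.20 over 8 alternatives).

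Of 21 hepcidin and iron handling genes 17 were tested, 4 were higher and 1 was lower in CKO, beside 4.85% and 2.75% of all tested genes. The median log2 change was 0.28, and DESeq2 called 3 higher and 2 lower. At an unadjusted p under 0.05 there were 7 higher and 2 lower in edgeR. The iron storage genes Fth1 and Ftl1, the ferritin chains, rose. Fth1 stood at 747 and 703 CPM in CKO against 434 and 445 CPM in WT (log2 change 0.75 ± 0.12, edgeR adjusted p = 0.013), and Ftl1 at 163 and 154 CPM against 98.6 and 95.8 CPM in WT (0.74 ± 0.11, adjusted p = 0.0096). Tfrc, the transferrin receptor of iron uptake, was at 29.5 and 28.2 CPM in CKO and 19.4 and 21.5 CPM in WT (0.52 ± 0.12, edgeR adjusted p = 0.044). Id1, a target of the BMP signal that induces Hamp in liver, rose to 124 and 130 CPM in CKO, against 64.1 and 64.9 CPM in WT (1.00 ± 0.11, edgeR adjusted p = 0.0037). Bmp2, a ligand of that signal, fell to 26.8 and 22 CPM in CKO, against 47.5 and 49.3 CPM in WT (-0.96 ± 0.13, edgeR adjusted p = 0.0067). Slc40a1, which encodes ferroportin, did not pass, at 31.9 and 31.5 CPM in CKO and 28.4 and 24.7 CPM in WT (edgeR adjusted p = 0.23). The calls of Fth1 (adjusted p = 0.077 without WT A and 0.098 without WT B) and Ftl1 (0.072 without WT B) were lost when these libraries were left out, with ranges of 9.9e-08 to 0.098 and 7.9e-07 to 0.072 over 8 alternatives. That of Tfrc was lost without WT A (0.25), without WT B (0.21), in DESeq2 (0.0625) and with library size alone (0.059), with a range of 0.0048 to 0.25.

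Genes typical of liver, kidney and pancreas, where members are known, were mostly near 0 reads, while some genes typical of muscle and neurons were read. Of 13 hepatocyte genes 2 could be tested and 0 passed in edgeR, at an unadjusted p under 0.05 or in DESeq2, and the list summed to 3.37 and 4.83 CPM in CKO and 1.26 and 5.48 CPM in WT. With no filter on low counts edgeR called 1 of the list higher. The liver gene Apoh, which is not on the list, had 50 and 134 reads in CKO and 0 and 2 in WT. Alb had 0 reads in each CKO library, 0 in WT A and 5 in WT B, and Apob had 8 and 31 reads in CKO and 0 and 4 in WT. Of 11 kidney tubule genes likewise 2 were tested and 0 passed by any of these, with 9 and 10 reads of the water channel gene Aqp2 in CKO and 0 and 2 in WT. The kidney list summed to 2.27 and 2.08 CPM in CKO and 1.17 and 2.49 CPM in WT. Of 12 pancreatic acinar genes 1 could be tested, and it, the carboxypeptidase gene Cpb1 (60 and 85 reads in CKO, 20 and 41 in WT), did not pass in edgeR (adjusted p = 0.10) or DESeq2, and was higher at an unadjusted p under 0.05 with a log2 change of 1.28 ± 0.42 (SE). It passed without CKO A (adjusted p = 0.037) and with no filter on low counts (0.016), with a range of 0.016 to 0.38 over 8 alternatives. The acinar list summed to 2.54 and 4.45 CPM in CKO and 1.78 and 2.33 CPM in WT. Of 10 skeletal muscle genes 3 were tested and 0 passed in edgeR or DESeq2, or at an unadjusted p under 0.05. Of 10 neuronal genes 7 were tested and 1 was higher, beside 4.85% of all tested genes. It was the tubulin gene Tubb3, at 4.58 and 9.08 CPM in CKO against 0.867 and 0.545 CPM in WT (log2 change 3.30 ± 0.45, edgeR adjusted p = 0.0079). At an unadjusted p under 0.05 there were 2 higher and 0 lower, the other being Slc17a7, a glutamate transporter gene, at 3.37 and 1.57 CPM in CKO and 0.65 and 0.933 CPM in WT (edgeR adjusted p = 0.073, but 0.022 without CKO B and 0.0035 with no filter, range 0.0035 to 0.32 over 8 alternatives). The neuronal list summed to 20.8 and 17.7 CPM in CKO and 6.98 and 9.18 CPM in WT, with a median log2 change of 0.50. The muscle list summed to 8.93 and 10.9 CPM in CKO and 8.84 and 10.04 CPM in WT.

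**Figure D5:**
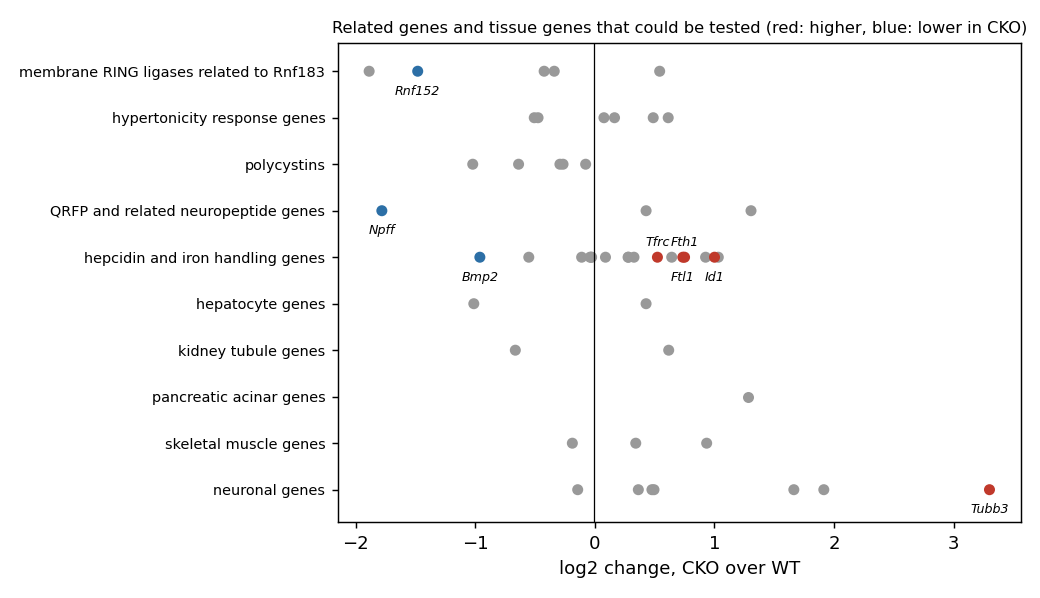
Log2 change of CKO over WT (x axis) of each gene that could be tested in the lists of relatives, pathway genes and tissue genes (rows), with a line at the median of all tested genes, -0.01. Called genes are named, higher in CKO in red and lower in blue, and the others are in grey.

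Markers of other lung cells were read in every library, some above the level of each of the 4 genes, such as the surfactant gene Sftpc at 83.0 and 27.5 CPM in CKO and 30.1 and 89.2 CPM in WT. The 8 epithelial markers summed to 146 and 77.9 CPM in CKO A and CKO B and to 58.6 and 185 CPM in WT A and WT B, and 0 of 8 passed in edgeR, at an unadjusted p under 0.05 or in DESeq2. The highest of these sums was in WT B, where Sftpc alone stood at 89.2 CPM. The 6 endothelial markers summed to 126 and 78.2 CPM in CKO and to 69.5 and 100 CPM in WT, and 0 passed, with 1 higher at an unadjusted p under 0.05 and 0 in DESeq2. The 8 leukocyte markers summed to 71.6 and 45.2 CPM in CKO and 32.9 and 45.0 CPM in WT, and 3 of 7 tested were higher (Cd74, Laptm5 and Fcer1g), beside 4.85% of all tested genes. Without WT A or without WT B the calls of Laptm5 and Fcer1g were lost, with adjusted p ranges of 0.00033 to 0.13 and 7.0e-05 to 0.082 over 8 alternatives. The leukocyte sum was lower in CKO B than in CKO A, with Lyz2 at 31.2 CPM in CKO A and 10.4 CPM in CKO B. Not each marker followed it, since Fcer1g stood at 3.37 CPM in CKO A and 4.11 CPM in CKO B. The 4 erythroid markers summed to 10.9 and 5.43 CPM in CKO and 15.9 and 24.4 CPM in WT, with 1 of 3 tested lower (Hba-a1, a call lost without CKO B or without WT B, adjusted p range 0.00022 to 0.22). Of all tested genes 2.75% were lower. The part of these other cells in the reads of the 4 genes was not tested.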

How the data were processed

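RNA was sequenced from sorted PDGFRb-GFP positive lung cells of mice on postnatal day 7, with 2 CKO and 2 WT libraries. The table the authors deposited holds raw counts of reads by gene, another column with gene length in bases, and their own log2 fold change with its adjusted p-value, as read from the file headers. Per the submitters' processing notes, processing used STAR on GRCm38.p6, edgeR 3.28.1, Trimmomatic 0.36, cutadapt 2.5 and FastQC 0.11.8. Which tool counted the reads, and whether by strand, is not given in the sources used here. A further 4 columns of per-sample values were not used. Columns named Mutant and Control were read as CKO and WT.

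The 4 members and all gene lists were chosen with earlier results of these data known. Coordinates and exon lengths came from GENCODE M21 (GRCm38), matched by identifier for 31183 of 31247 genes (99.8%), and promoters from RefSeq (GRCm38.p6), which held all 4 members. The fit used R 4.3.3 and edgeR 4.0.16 with filterByExpr (minimum count 10), TMM scaling, glmQLFit and glmQLFTest with robust estimation, and Benjamini-Hochberg adjustment over 15210 genes at a threshold of 0.05. DESeq2 1.42.0 was an alternative. CPM was taken over library totals. SE is the log2 change over the square root of F. The fit was tested on simulated data. Genes were named by list (lowest p or called, or paralogs of a member), as called neighbours, or by likeness to a member. Prpf4, Gcsh, Bco1, Usf2, Smarcad1, Eln, Sftpc, Lyz2 and the tissue genes given by reads were picked after their values were seen. No source says whether replicates came from separate litters, and the p-values then speak only of the spread among the 4 libraries, which may be technical. Some neighbour genes are counted but not reported here by name.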

Additional observations from a re-analysis of the deposited data

How the results depend on the processing

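With TMM scaling the CKO means of the 4 genes were 10.1 (Rnf183), 8.97 (Pkd1l2), 7.28 (Qrfprl) and 5.13 CPM (Hamp2), and their ratios of CKO B to CKO A stayed within the counting intervals with TMM or RLE scaling. With 2 CKO libraries, leaving out 1 gives the value of the other, 3.90 or 10.5 CPM for Qrfprl. The count of called genes was 1157, and it was 2459 with no filter on low counts and ranged from 339 to 1842 when 1 library was left out (1842 without CKO A, 1055 without CKO B, 603 without WT A and 339 without WT B). Of the genes in the relative, pathway and tissue lists 8 were called, 16 with no filter and 5 to 12 when 1 library was left out (5 without WT B). The 3 called neighbours became 2 to 4 when 1 library was left out, and 3 in each other alternative. With library size alone the split of calls was 738 higher and 559 lower, against 738 and 419 with TMM. Rnf152, Bmp2, Id1, Tubb3 and Usf2-ps1 kept their calls in all 8, and Npff, Fth1, Ftl1, Tfrc and Wdr31 each lost theirs in at least 1, all with the same direction. The fits that leave out 1 library keep 1 in that genotype, which is assumed to vary like the others. No paired analysis was possible because the count columns do not name the replicates of the labels. Counts of 0 in WT limit each of the 4 genes to 0.0615 CPM (3 reads over both WT libraries), and levels below that could have been missed at this depth.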

Other observations

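Other named genes without a mainly germ cell role also had at most 3 WT reads and at least 100 CKO reads, and were picked for mention after their values were seen, so that no test is given. Aire, the gene of the thymic regulator of self-antigen expression, had 47 and 106 reads in CKO A and CKO B and 0 in each WT library. Apoh, of a liver plasma glycoprotein, had 50 and 134 reads in CKO and 0 and 2 in WT. Bglap3, an osteocalcin relative, had 150 and 442 reads in CKO and 1 in each WT library. The ion channel gene Trpm2 had 64 and 98 reads in CKO and 0 in each WT library. Slco1a6, an organic anion transporter gene, had 31 and 72 reads in CKO and 1 and 0 in WT. The potassium channel gene Kcng3 differed from these within the CKO group, with 2 reads in CKO A and 108 in CKO B and 0 in each WT library, a ratio of CKO B to CKO A of 60.5. Nlrp1a did so as well, with 0 reads in CKO A, 160 in CKO B and 0 in each WT library. The predicted genes Gm41555 (1303 and 1 reads in CKO A and CKO B) and Gm20468 (161 and 4) went the other way.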
